A study of Mus musculus with 18 samples.

Results

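DN1e and DN1ab are both subsets of the earliest double-negative thymocytes, the cells of the thymus that lack the coreceptors CD4 and CD8. They were compared through the 3 libraries labelled DN1e and the 2 labelled DN1ab, which are 5 of the 18 RNA-seq libraries of the series. The libraries were taken by their labels, and the pair was set side by side because both were known to hold myeloid transcripts from an earlier look at these data. All 18 came from thymus of C57BL/6 mice at postnatal day 10, with about 10000 cells sorted per population, lysed directly, and their RNA amplified before Illumina HiSeq sequencing. The other 13 libraries hold DN1d (n = 2), DN1 ckit+ (n = 3), DN2 (n = 3), DN4 (n = 3) and ImmV2 (n = 2), a name that the labels do not expand. No transgene, knockout or treatment is named for any population. The design text calls the replicates biological, but no label says that they came from separate animals, so the spread behind each p-value is that among libraries and could in part be technical.

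The labels do not give the surface markers behind the names DN1e and DN1ab. In the usual scheme for mouse thymus, DN1 cells carry CD44 and lack CD25, and Kit and CD24 divide them further. DN1a and DN1b are the Kit-high early T-cell progenitors that arrive from the bone marrow. DN1d and DN1e have little or no Kit, and DN1e also lacks CD24. Early thymic progenitors can still give rise to myeloid and dendritic cells until Notch signalling commits them to the T lineage, and macrophages and dendritic cells resident in the thymus take up the many thymocytes that die there. The values are averages over sorted cells, so that fewer cells of a type and less RNA per cell cannot be told apart.

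Levels are in FPKM, fragments per kilobase of transcript and library size, as deposited on a log2 scale. The lowest deposited value was 0.01 FPKM, and a gene at that value is described as listed at the lowest value. In DN1e libraries 39.1% to 42.0% of the 34082 rows were listed there, and in DN1ab libraries 45.3% and 46.1%. Among the other 13 libraries, ImmV2 1 and DN2 1 stood apart with 53.3% and 53.6%. Rank correlations were low throughout. Over the genes tested, Spearman's rho was 0.268 to 0.276 between DN1e libraries, 0.271 between the DN1ab libraries and 0.186 to 0.210 between DN1e and DN1ab libraries. The median rho was 0.197 between DN1e and the other 13 libraries and 0.250 between DN1ab and those 13. DN1ab 2 had its highest rho with a DN1 ckit+ library (0.290), above that with DN1ab 1. These correlations share the scale of the table and describe the libraries only.

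The genes that were higher in DN1e included C1qa and Ctsb of macrophages, the microbial sensors Clec7a and Tlr8 and the transcription factor Tfec. These were the only 5 called higher of 394 tested genes in lists chosen with earlier results known, beside 0.249% of all genes tested. Most of the 61 genes called higher were in no list. The largest differences among the named ones were those of Gjc3, Fgf11 and Pcdh20. The genes that were lower included the receptor gene Lilra6 and the kinase gene Ripk4, which were near the lowest value in most other libraries. Of 24525 genes that reached 1 FPKM in 2 or more libraries, 142 (0.579%) differed, 61 higher in DN1e (0.249%) and 81 lower (0.33%). The test was limma on log2(FPKM + 1) with the 7 populations fitted together, called at a Benjamini-Hochberg adjusted p under 0.05 and a log2 difference of at least 1. Values of DN1e and DN1ab did not overlap for any of the 142, a property that 9.17% of tested genes had with DN1e above and 12.1% with DN1e below. For 54 of the 61 higher genes the DN1e libraries were also above all 13 others. For 73 of the 81 lower genes the DN1ab libraries were above all 13 others. The share of all tested genes with this property was not counted. The spread in the fit comes partly from those 13 libraries, and low, even values there help a gene to be called. These counts thus describe the calls and are not independent support. Both DN1ab libraries were listed at the lowest value for 31 of the 61, and all DN1e libraries for 19 of the 81. Both DN1ab libraries were under 1 FPKM for 57 of the 61, and all DN1e libraries for 62 of the 81. Most calls thus set a level against values under 1 FPKM.

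The count rests on the spread estimated over all 18 libraries. With the 5 libraries alone, limma called 0 genes, with 1576 at an unadjusted p under 0.05, against 2441 in the fit of 18. With the deposited log2 values and no pseudocount, 43 were called, 19 higher and 24 lower. Leaving out DN1e 1, 2 or 3 gave 171, 146 and 195 higher genes and 75, 80 and 80 lower ones. Leaving out DN1ab 1 or 2 gave 32 and 42 higher genes and 247 and 324 lower ones, with the lone DN1ab library assumed to vary like the other groups.

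**Figure D1:**
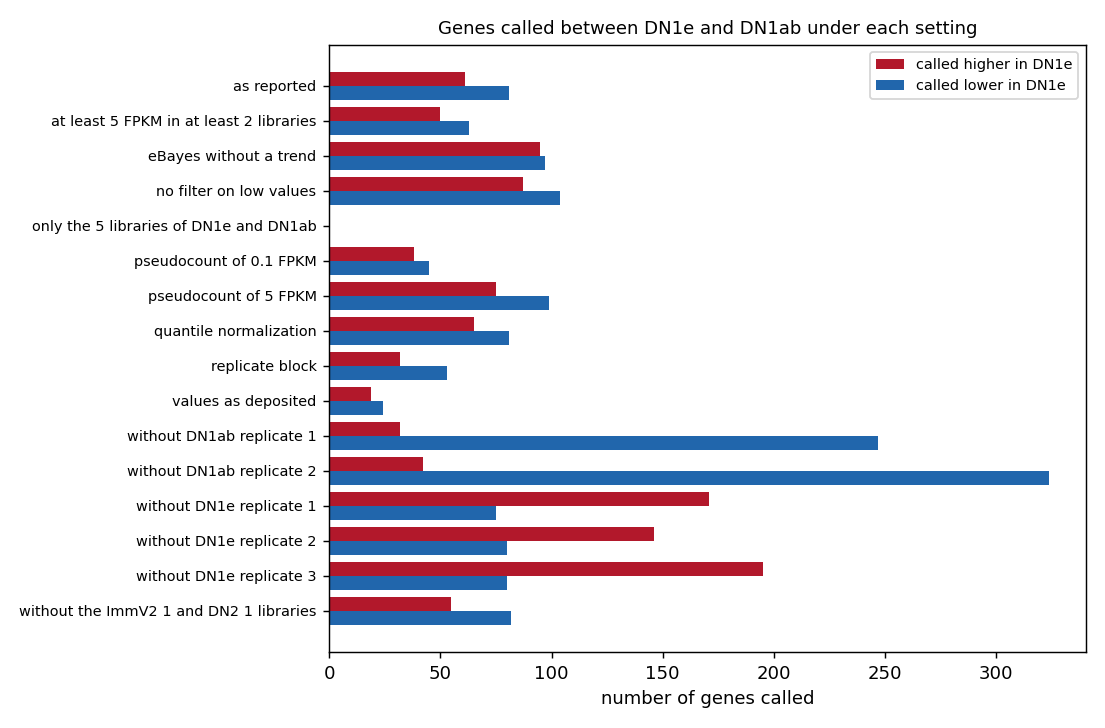
Number of genes called higher and lower in DN1e than in DN1ab (x axis) under each setting (y axis). The 61 higher and 81 lower genes of the first row give way to 0 of each with the 5 libraries alone, and to 247 or 324 lower genes when a DN1ab library is left out.

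The macrophage and monocyte genes that passed the test were C1qa and Ctsb. C1qa encodes a chain of C1q, which starts the classical complement pathway and is made by tissue macrophages. It had 108, 79.9 and 74.9 FPKM in DN1e libraries, against 0.222 and 0.0717 FPKM in DN1ab libraries. All 3 DN1e values were far above both DN1ab values, and the highest of the other 13 libraries had 1.12 FPKM. The log2 difference was 6.25 ± 0.825 (SE), with a limma adjusted p of 0.0015. Ctsb encodes cathepsin B, a lysosomal protease that is abundant in phagocytes. It had 219, 233 and 124 FPKM in DN1e libraries, against 2.84 and 2.04 FPKM in DN1ab libraries. The other 13 libraries ranged from 0.982 to 15.5 FPKM, so DN1e stood above every other population and DN1ab lay within the range of the rest. The log2 difference was 5.77 ± 0.968 (SE), with a limma adjusted p of 0.00928. The Ctsb call was lost with a pseudocount of 0.1 FPKM, and both calls were lost with the deposited values.

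The other chains of C1q were less even. C1qb had 0.01, 409 and 325 FPKM in DN1e libraries, against 0.331 and 0.162 FPKM in DN1ab libraries. C1qc had 431, 23.2 and 5.35 FPKM in DN1e libraries, against 0.366 and 1.54 FPKM in DN1ab libraries. C1qb was thus listed at the lowest value in 1 DN1e library, while C1qc did not overlap between the populations. Neither passed the test, with limma adjusted p of 0.337 for C1qb and 0.519 for C1qc. Both were named after their values were seen.

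Lysozyme and cathepsin S, further products of phagocytes, were higher in every DN1e library without passing the test. Lyz2 had 406, 290 and 226 FPKM in DN1e libraries, against 24.9 and 10.4 FPKM in DN1ab libraries. The populations did not overlap, at a log2 difference of 4.12 ± 1.20 (SE) and a limma adjusted p of 0.189. Ctss, the protease that trims invariant chain for class II presentation, had 137, 151 and 60.3 FPKM in DN1e libraries, against 18.4 and 3.20 FPKM in DN1ab libraries. This was a log2 difference of 3.59 ± 1.03 (SE), with a limma adjusted p of 0.18. Cd63, a tetraspanin of late endosomes, had 82.8, 84.9 and 25.1 FPKM in DN1e libraries, against 0.910 and 5.13 FPKM in DN1ab libraries. Limma gave an adjusted p of 0.0888. Ctsc, a protease that activates granule enzymes, had 14.3, 95.2 and 2.64 FPKM in DN1e libraries, against 0.143 and 0.0976 FPKM in DN1ab libraries. DN1e 3 was the lowest DN1e library for each of these genes, and it was still above both DN1ab libraries.

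Of 35 macrophage and monocyte genes listed, 34 were in the table and 30 passed the filter on low values. In DN1e, 2 of the 30 were called higher, beside 0.249% of all genes tested, and 0 lower. Every DN1e value was above both DN1ab values for 8 of the 30, beside 9.17% of all genes tested, and below for 0, beside 12.1%. The median log2 difference of the 30 was 1.41, beside 0.000203 over all genes tested. The summed level of the list was 1595, 1885 and 1164 FPKM in DN1e libraries, against 157 and 222 FPKM in DN1ab libraries. The other 13 libraries summed to 20.4 to 695 FPKM, so DN1ab lay inside that range and DN1e above it. Of the 25 lysosome and phagocyte oxidase genes, 22 passed the filter, 1 was called higher (Ctsb), beside 0.249% of all genes tested, and the median log2 difference was 0.991.

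Several genes that define macrophages were near the lowest value in DN1e, and Csf1r, Cybb and Cx3cr1 also in DN1ab. All but Csf1r were named after their values were seen. Csf1r, the receptor for the growth factor M-CSF, did not exceed 0.0837 FPKM in DN1e libraries or 0.0934 FPKM in DN1ab libraries. Cybb, the catalytic chain of the phagocyte oxidase, was listed at the lowest value in all 5. Cx3cr1, the fractalkine receptor, did not exceed 0.0590 FPKM in DN1e libraries or 0.0698 FPKM in DN1ab libraries. Emr1, which encodes the macrophage antigen F4/80, did not exceed 0.0262 FPKM in DN1e libraries, against 1.90 and 0.0331 FPKM in DN1ab libraries. Of the 34 listed genes, 6 to 8 were listed at the lowest value in a DN1e library and 8 or 9 in a DN1ab library. Genes that every cell uses were uneven in the same libraries. Eef1a1, the translation elongation factor, had 0.812, 2.58 and 2.37 FPKM in DN1e libraries, against 482 and 554 FPKM in DN1ab libraries, with a limma adjusted p of 0.183. A value at or near the lowest is therefore given as a listing only.

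**Figure D2:**
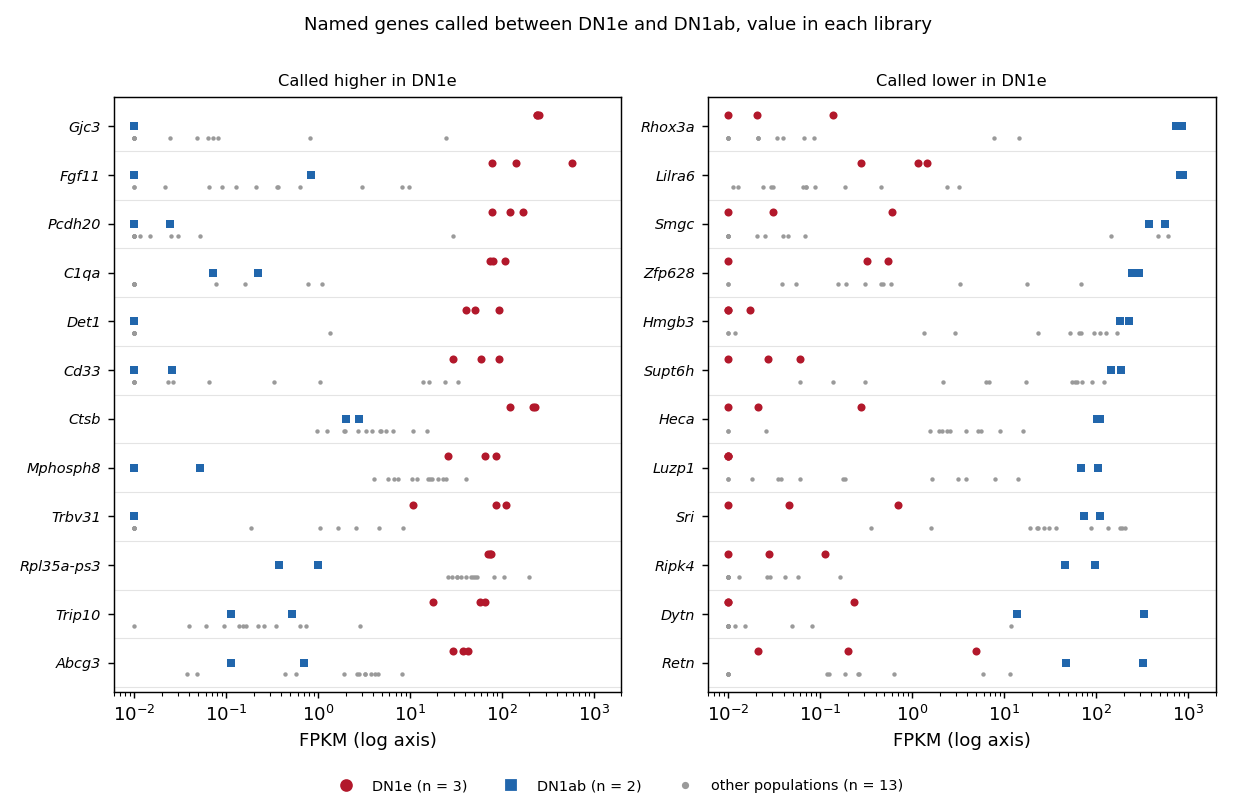
FPKM on a log axis (x) in each library for the 12 named genes called with the largest positive and the 12 with the largest negative difference, DN1e in red, DN1ab in blue and the other 13 libraries in grey. C1qa and Ctsb lie above all grey points in DN1e, and Lilra6 and Ripk4 lie above all grey points in DN1ab.

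Receptors by which phagocytes sense microbes were among the genes called higher in DN1e. Clec7a, which encodes the beta-glucan receptor dectin-1, had 13.3, 3.52 and 11.9 FPKM in DN1e libraries, against 0.01 and 0.0318 FPKM in DN1ab libraries. It did not exceed 0.104 FPKM in the other 13 libraries, and the log2 difference was 3.21 ± 0.568 (SE) with a limma adjusted p of 0.0141. Tlr8, an endosomal Toll-like receptor, had 8.53, 3.34 and 6.03 FPKM in DN1e libraries and stood at the lowest value in both DN1ab libraries. The limma adjusted p was 0.011, and it ranged from 0.000677 to 0.726 over the alternatives. The call was lost under a filter of at least 5 FPKM. Clec7a lost its call with the deposited values. Cd33, a sialic acid-binding lectin of myeloid cells, had 94.1, 29.4 and 58.9 FPKM in DN1e libraries, against 0.01 and 0.0262 FPKM in DN1ab libraries. Cd33 was not particular to DN1e, since a DN2 library had 33.5 FPKM and 5 of the other 13 libraries had at least 1 FPKM. Its log2 difference was 5.77 ± 1.19 (SE) with a limma adjusted p of 0.0361, which became 0.111 without DN1ab 1, 0.091 without DN1ab 2, 0.073 without DN1e 1 and 0.0531 without DN1e 3.

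Tlr1 and Tlr2, surface receptors for bacterial lipopeptides, showed values in the same direction. Tlr2 had 10.8, 11.1 and 4.31 FPKM in DN1e libraries, against 0.0858 and 0.296 FPKM in DN1ab libraries. Tlr1 had 9.17, 4.74 and 10.8 FPKM in DN1e libraries, against 0.01 and 0.109 FPKM in DN1ab libraries. Neither overlapped between the populations and neither passed the test, with limma adjusted p of 0.272 for Tlr2 and 0.126 for Tlr1. Of 25 Toll-like and interferon response genes tested, Tlr8 was the 1 called, beside 0.579% of all genes tested, and the median log2 difference was -0.0594.

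Tfec encodes a basic helix-loop-helix factor of the MiT family that is found mainly in macrophages. It had 18.4, 31.7 and 18.6 FPKM in DN1e libraries, against 0.01 and 0.454 FPKM in DN1ab libraries, and did not exceed 0.161 FPKM elsewhere. The log2 difference was 4.26 ± 0.652 (SE), with a limma adjusted p of 0.00448, and the call was lost with the deposited values. Klf6, a zinc finger factor of activated myeloid cells, had 36.1, 16.7 and 27.1 FPKM in DN1e libraries and stood at the lowest value in both DN1ab libraries, with a limma adjusted p of 0.173. Of 23 myeloid and dendritic cell transcription factors tested, Tfec was the 1 called, beside 0.579% of all genes tested.

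The sequence just upstream of Tfec is shown beside those of Lilra6 and Fcer1g. C1qa, Ctsb and Tyrobp were sought as well and had no entry in the promoter table used. Tfec was called higher in DN1e and Lilra6 lower. Fcer1g was not called between DN1e and DN1ab, and was called higher in the comparison of both with the other populations. Each line holds the 100 bases before the annotated start, 5′ to 3′ on the gene's strand, from the RefSeq promoter table for GRCm38.p6. Capitals mark AGGAAG on either strand, a core read by ETS factors, which include regulators of myeloid genes.
Tfec, chr6:16898442-16898541, minus strand: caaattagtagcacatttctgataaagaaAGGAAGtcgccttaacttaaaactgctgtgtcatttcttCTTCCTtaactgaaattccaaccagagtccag
Lilra6, chr7:3915502-3915601, minus strand: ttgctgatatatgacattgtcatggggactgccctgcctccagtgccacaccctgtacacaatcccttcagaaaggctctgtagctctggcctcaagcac
Fcer1g, chr1:171234350-171234449, minus strand: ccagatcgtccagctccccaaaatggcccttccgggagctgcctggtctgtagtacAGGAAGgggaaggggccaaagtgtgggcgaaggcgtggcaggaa
The letters occurred in the stretch shown for Tfec and Fcer1g and not in that for Lilra6. Over the whole 300-base window, 12 of the 29 genes called higher in DN1e that matched the table held them (41.4%), as did 11 of the 28 called lower (39.3%) and 35.1% of all 27025 promoters. CACGTG, a palindrome bound by MiT factors and other basic helix-loop-helix proteins, was in 1 of the 29 (3.45%), 1 of the 28 (3.57%) and 7.24% of all promoters. These are matches of letters and not evidence of binding.

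Lilra6 was the 1 gene of the receptor lists that was called lower in DN1e. It is a mouse gene of the paired immunoglobulin-like receptor family, whose activating members signal through the Fc receptor gamma chain. It had 1.46, 1.15 and 0.279 FPKM in DN1e libraries, against 830 and 878 FPKM in DN1ab libraries. The DN1ab libraries were the only 2 of 18 above 3.27 FPKM, and the DN1e libraries lay within the range of the other 13. The log2 difference was -8.82 ± 0.933 (SE), with a limma adjusted p of 0.000213, and the call was lost with the deposited values. Family members are near-identical in sequence, so how reads were divided among them is uncertain. Lilrb3, an inhibitory member, showed the reverse, with 11.7, 10.99 and 22.3 FPKM in DN1e libraries, against 0.0733 and 0.354 FPKM in DN1ab libraries, at a limma adjusted p of 0.145.

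The adaptors through which such receptors signal were present in both populations. Fcer1g, the Fc receptor gamma chain, had 700, 278 and 371 FPKM in DN1e libraries, against 24.7 and 35.8 FPKM in DN1ab libraries. The groups did not overlap, at a log2 difference of 3.76 ± 1.11 (SE) and a limma adjusted p of 0.201. Tyrobp, the adaptor DAP12, had 22.0, 42.3 and 4.88 FPKM in DN1e libraries, against 43.5 and 30.8 FPKM in DN1ab libraries, and the populations overlapped. The 23 Fc receptor and ITAM adaptor genes in the table summed to 773, 371 and 465 FPKM in DN1e libraries, against 929 and 971 FPKM in DN1ab libraries. The other 13 libraries summed to 5.53 to 111 FPKM. Both populations were thus above all others, with most of the sum from Fcer1g in DN1e and from Lilra6 in DN1ab. Lilra6 alone had 830 and 878 FPKM in the DN1ab libraries, so the place of DN1ab rests on that gene, whose share of reads is uncertain.

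**Figure D3:**
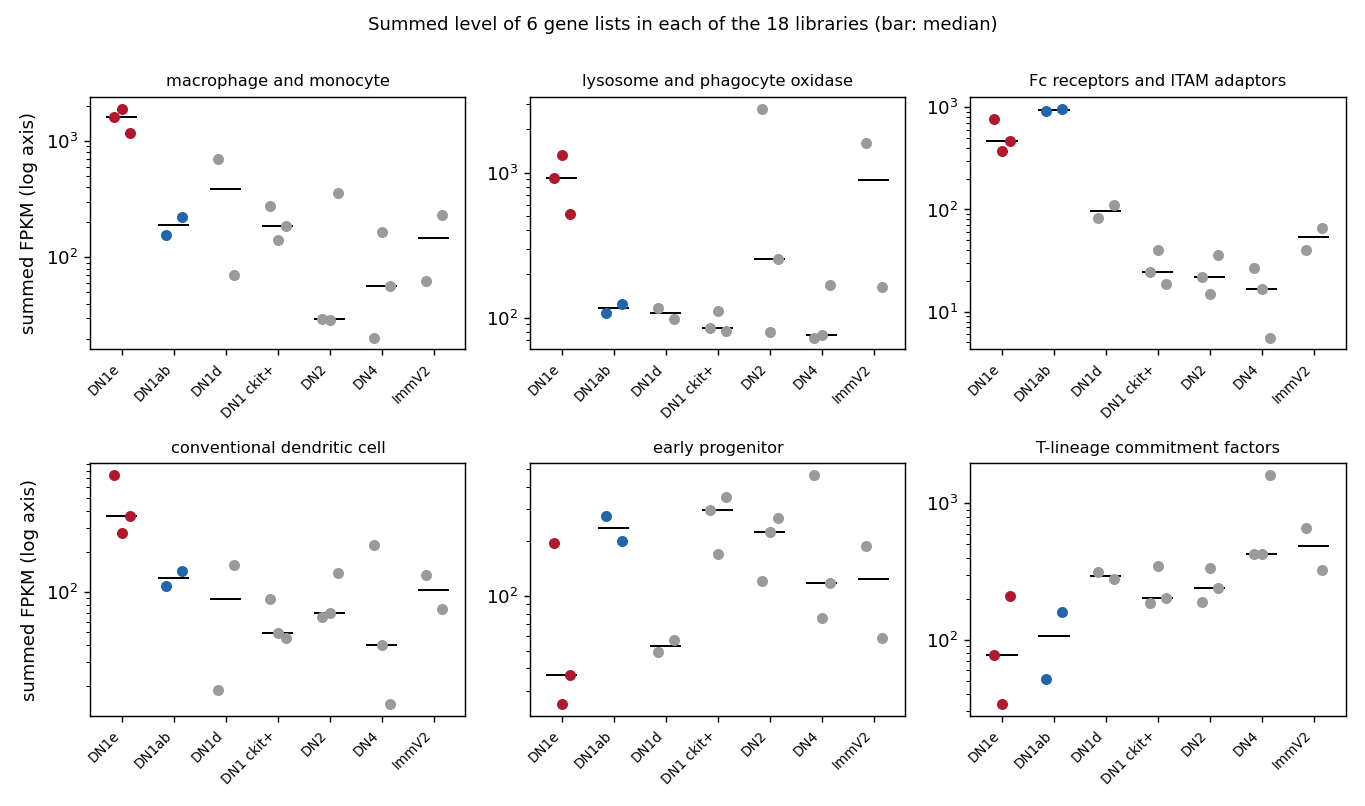
Summed FPKM on a log axis (y) of 6 gene lists in each of the 18 libraries, grouped by population (x), with the median as a bar. DN1e is highest for macrophage and conventional dendritic cell genes. DN1e and DN1ab are both above all other populations for Fc receptors and ITAM adaptors, in DN1ab mostly through Lilra6.

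Other genes called lower in DN1e had roles outside a single lineage. Ripk4, a kinase known for its part in epidermal differentiation, had the smallest limma adjusted p of the named genes, 0.00016, with 0.0275, 0.113 and 0.01 FPKM in DN1e libraries, against 97.7 and 46.5 FPKM in DN1ab libraries. No other library exceeded 0.163 FPKM. Retn, which encodes resistin, had 0.199, 0.0208 and 4.99 FPKM in DN1e libraries, against 46.7 and 325 FPKM in DN1ab libraries. For Retn the limma adjusted p of 0.0412 became 0.193 without DN1ab 2, 0.083 without DN1e 1 and 0.0943 without DN1e 2. Rhox3a, a homeobox gene of a multicopy X-linked cluster, had 0.0204, 0.137 and 0.01 FPKM in DN1e libraries, against 868 and 750 FPKM in DN1ab libraries, with a limma adjusted p of 0.000718. The calls for Retn and Rhox3a, and that for Smgc below, were lost with the deposited values. Smgc, a salivary mucin gene, had at most 0.600 FPKM in DN1e libraries, against 375 and 560 FPKM in DN1ab libraries, and 605 FPKM in DN1d 2, so that this gene was not particular to DN1ab. Its limma adjusted p of 0.015 became 0.0597 without DN1ab 2.

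Genes of general cell function were also in the lower group. Hmgb3, a chromatin protein of haematopoietic progenitors, had 0.01, 0.01 and 0.0171 FPKM in DN1e libraries, against 228 and 181 FPKM in DN1ab libraries. In the other 13 libraries its median was 51.8 FPKM. However, DN1d libraries had 1.36 and 0.01 FPKM and ImmV2 libraries 0.01 and 2.93 FPKM. A low level was thus not particular to DN1e. For Hmgb3 the limma adjusted p of 0.0272 became 0.105 without DN1ab 1 and 0.0712 without DN1ab 2. Sri, a calcium-binding protein, had at most 0.698 FPKM in DN1e libraries, against 74.7 and 112 FPKM in DN1ab libraries and a median of 31.2 FPKM elsewhere, with a limma adjusted p of 0.00395. DN1d libraries had 1.59 and 0.355 FPKM, so a low level of Sri was not particular to DN1e. Supt6h, a histone chaperone of transcript elongation, had at most 0.0596 FPKM in DN1e libraries, against 145 and 186 FPKM in DN1ab libraries. The other 13 libraries ranged from 0.0609 FPKM in DN1 ckit+ 1 to 122 FPKM in DN2 1. The limma adjusted p of 0.0444 for Supt6h rose above the threshold without any 1 of the 5 libraries, to between 0.0665 and 0.129. The remaining named genes were Zfp628, Heca, Luzp1 and Dytn, at limma adjusted p of 0.0103 to 0.0207. These calls, and that for Hmgb3, were lost with the deposited values. The calls for Zfp628 and Dytn were lost without DN1ab 1 (0.0513) and DN1ab 2 (0.0679), in that order.

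Il12a and Rgs18, outside the naming rule, were picked after their values were seen because they act in immune cells. Il12a, the p35 chain of interleukin-12 and interleukin-35, had 0.01, 1.01 and 0.01 FPKM in DN1e libraries, against 18.6 and 54.0 FPKM in DN1ab libraries. This was a log2 difference of -4.69 ± 0.687 (SE), with a limma adjusted p of 0.00313. Rgs18, a regulator of G-protein signalling in blood cells, had 0.757, 0.375 and 0.0537 FPKM in DN1e libraries, against 61.1 and 58.4 FPKM in DN1ab libraries, with a limma adjusted p of 0.0144. Both calls were lost when the pseudocount was 0.1 FPKM or the deposited values were used.

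On the DN1e side, 4 genes were picked in the same way. Ccl2, the chemokine that draws CCR2-bearing monocytes, had 5.06, 3.42 and 4.52 FPKM in DN1e libraries, against 0.0709 and 0.0567 FPKM in DN1ab libraries, at a limma adjusted p of 0.0145. Ear1, an eosinophil-associated ribonuclease of a family of close copies, had 26.6, 29.4 and 17.4 FPKM in DN1e libraries, against 0.0514 and 0.01 FPKM in DN1ab libraries, at a limma adjusted p of 0.00207. Klrc3, an NK cell lectin gene with close copies, had 11.2, 5.89 and 40.3 FPKM in DN1e libraries, against 0.238 and 0.01 FPKM in DN1ab libraries. None of these 3 overlapped between the populations. Klrc3 lost its call without DN1ab 1 (limma adjusted p of 0.0886) or DN1ab 2 (0.111). Bcl2l1, the survival factor Bcl-x, had 17.0, 17.5 and 8.73 FPKM in DN1e libraries, against 0.01 and 0.0560 FPKM in DN1ab libraries, and lost its call without DN1ab 1 (0.0791) or DN1ab 2 (0.0583). Ccl2 lost its call with either other pseudocount, without a trend in the variance and with the deposited values.

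The largest positive difference among the named genes that were called belonged to Gjc3, a gap junction protein known from myelinating glia, with 242, 240 and 254 FPKM in DN1e libraries, while both DN1ab libraries were listed at the lowest value. Its limma adjusted p was 0.00391. Fgf11, an intracellular fibroblast growth factor homologue, had 77.7, 142 and 579 FPKM in DN1e libraries, against 0.01 and 0.842 FPKM in DN1ab libraries. Pcdh20, a protocadherin, had 122, 78.1 and 171 FPKM in DN1e libraries, against 0.01 and 0.0244 FPKM in DN1ab libraries. The populations did not overlap in these 3, and their limma adjusted p were at most 0.00857. Their calls were lost with the deposited values, as were those for Trip10 and Abcg3. Det1, Trip10 and Abcg3 were also called, and of these Trip10 and Abcg3 lost the call without DN1ab 1, at limma adjusted p of 0.0538 and 0.0837.

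In 2 named genes DN1ab was the population that stood apart on the low side. Rpl35a-ps3, a ribosomal protein pseudogene, had 71.6, 75.6 and 76.8 FPKM in DN1e libraries, against 1.01 and 0.380 FPKM in DN1ab libraries, with 25.8 to 197 FPKM in the other 13. Mphosph8, which reads a silencing histone mark, had 25.9, 86.3 and 66.0 FPKM in DN1e libraries, against 0.01 and 0.0518 FPKM in DN1ab libraries, with 4.05 to 40.4 FPKM in the other 13. The limma adjusted p was 0.0145 for Rpl35a-ps3. That for Mphosph8 was 0.0272, and it became 0.0886 without DN1ab 1, 0.0707 without DN1ab 2 and 0.0558 without DN1e 2. Trbv31, a T-cell receptor beta variable segment, had 10.7, 85.8 and 110 FPKM in DN1e libraries and stood at the lowest value in both DN1ab libraries. Its limma adjusted p of 0.0345 became 0.0620 to 0.106 without DN1e 2, DN1e 3, DN1ab 1 or DN1ab 2.

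Dendritic cell genes gave values on both sides without a call. Of 20 conventional dendritic cell genes, 15 passed the filter, 0 were called by limma between DN1e and DN1ab, and the median log2 difference was 1.1. All DN1e values were above for 4 and below for 2 of the 15, beside 9.17% and 12.1% of all genes tested. Id2, the inhibitor of E proteins needed by dendritic cells and innate lymphocytes, had 140, 122 and 107 FPKM in DN1e libraries, against 7.54 and 10.6 FPKM in DN1ab libraries. The 3 DN1e values were close to each other and far above both DN1ab values, at a log2 difference of 3.63 ± 0.962 (SE) and a limma adjusted p of 0.132. Naaa, a lysosomal amidase of dendritic cells, had 17.9, 6.97 and 22.4 FPKM in DN1e libraries, against 0.102 and 0.0679 FPKM in DN1ab libraries, with a limma adjusted p of 0.117. Zbtb46 was listed at the lowest value in all 5 libraries, and Clec9a did not exceed 0.0400 FPKM in them. Pacsin1, a gene of plasmacytoid dendritic cells, had 0.01, 15.1 and 0.119 FPKM in DN1e libraries, against 335 and 285 FPKM in DN1ab libraries, with a limma adjusted p of 0.143. Spib, a factor of the same cells, did not exceed 0.226 FPKM in DN1e libraries, against 3.94 and 4.06 FPKM in DN1ab libraries, with a limma adjusted p of 0.527. Siglech, a marker of these cells, went the other way. It had 13.5, 4.56 and 1.38 FPKM in DN1e libraries, against 0.780 and 0.01 FPKM in DN1ab libraries, with a limma adjusted p of 0.687. Of 14 plasmacytoid dendritic cell genes tested, 0 were called, and the median log2 difference was 0.128. All DN1e values were above for 2 and below for 3 of the 14, near the shares of all genes tested.

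**Figure D4:**
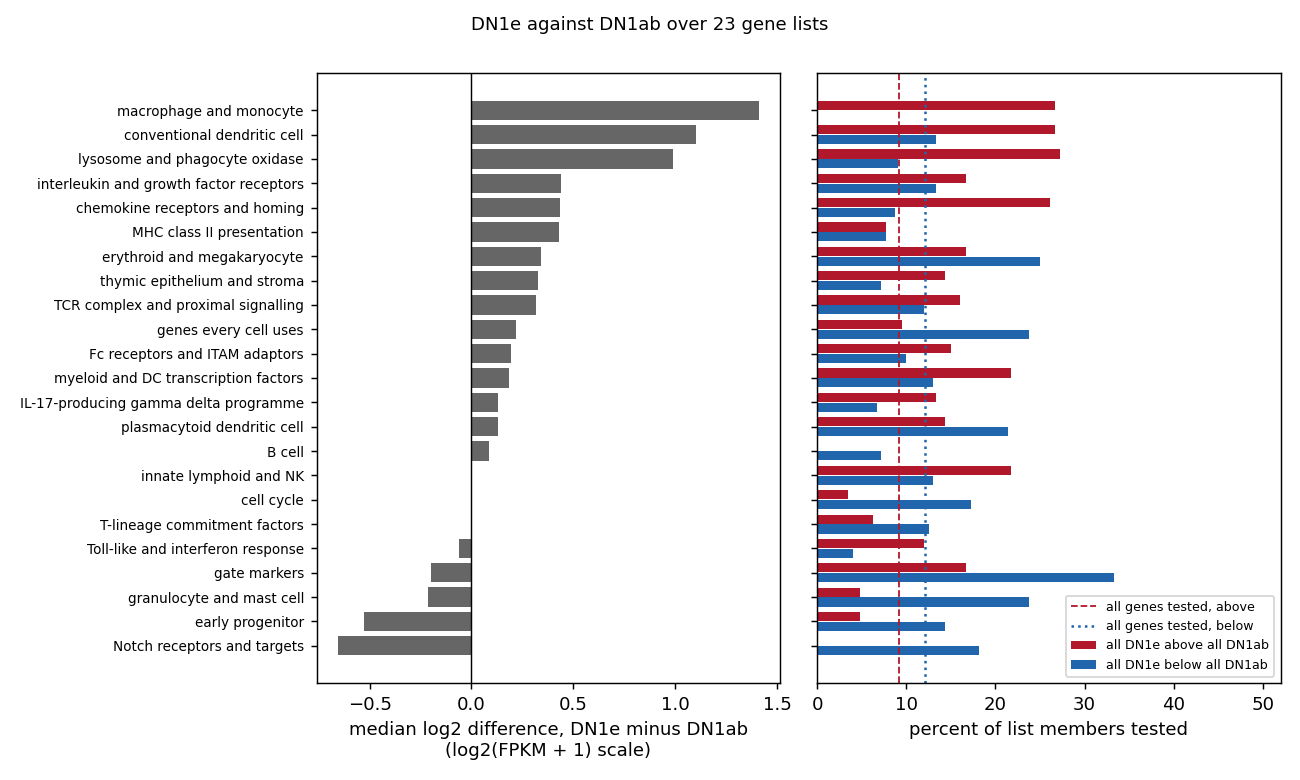
Median log2 difference, DN1e minus DN1ab, of the tested members of 23 gene lists (left) and the percent of them with all DN1e values above or all below the DN1ab values (right), with the percent over all genes tested as vertical lines. Macrophage genes have the highest median, 1.41, and none of them has all DN1e values below.

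Some genes of progenitors had higher values in both DN1ab libraries without passing the test. Kit, the stem cell factor receptor used to divide DN1 cells, had 0.660, 0.527 and 12.2 FPKM in DN1e libraries, against 18.3 and 55.7 FPKM in DN1ab libraries, with a limma adjusted p of 0.386. Flt3, the cytokine receptor of early progenitors and dendritic cells, had 3.30, 1.34 and 4.38 FPKM in DN1e libraries, against 14.3 and 28.7 FPKM in DN1ab libraries, with a limma adjusted p of 0.316. Neither overlapped between the populations, and DN1e 3 was the DN1e library nearest to DN1ab in both. Gfi1, a repressor of early blood cells, is listed here with the T-lineage commitment factors and not with the early progenitor genes. It had 0.712, 0.391 and 0.186 FPKM in DN1e libraries, against 7.04 and 7.44 FPKM in DN1ab libraries, with a limma adjusted p of 0.451. Its median in the other 13 libraries was 13.2 FPKM, above both DN1ab values, so Gfi1 was not high in DN1ab. Of 23 early progenitor genes, 21 passed the filter and 0 were called, with a median log2 difference of -0.529. All DN1e values were above for 1 and below for 3 of the 21, near the 9.17% and 12.1% of all genes tested.

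Markers used to sort thymocytes did not all follow the names of the populations. Cd44, which defines DN1 cells, was near the lowest value in DN1e, with 0.01, 0.0701 and 0.01 FPKM. DN1ab libraries had 14.0 and 36.0 FPKM, and the limma adjusted p between the populations was 0.136. Of the other 13 libraries only 1, DN1 ckit+ 3, reached 1 FPKM of Cd44, and their median was 0.01 FPKM. A low level of Cd44 was thus not particular to DN1e. Cd24a, whose protein DN1e cells lack in the usual scheme, had 347, 0.01 and 354 FPKM in DN1e libraries and stood at the lowest value in both DN1ab libraries. Cd8b1 had 0.01, 105 and 0.01 FPKM in DN1e libraries, against 224 and 207 FPKM in DN1ab libraries, while Cd8a did not exceed 0.210 FPKM in any of the 5. Ptprc, the pan-leukocyte antigen CD45, had 55.8, 45.9 and 32.7 FPKM in DN1e libraries, against 27.5 and 38.3 FPKM in DN1ab libraries. The Ptprc ranges overlapped. Of the 12 gate markers, 0 were called by limma between the populations.

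Some genes of T cells had higher values in every DN1e library without passing the test. Cd3e, a chain of the T-cell receptor complex, had 25.0, 60.9 and 72.8 FPKM in DN1e libraries, against 1.56 and 0.331 FPKM in DN1ab libraries. Cd3d, another chain, had 18.9, 9.59 and 22.5 FPKM in DN1e libraries, against 0.566 and 0.0775 FPKM in DN1ab libraries. Both were without overlap, at limma adjusted p of 0.0724 and 0.388. In the other 13 libraries Cd3e had a median of 16.6 FPKM, with 0.01 to 211 FPKM. Cd3d had a median of 6.96 FPKM there, with 0.01 to 114 FPKM. For these genes DN1e and DN1ab both lay within the range of the other libraries, with DN1ab below their median. Il7r, the interleukin-7 receptor needed by early lymphocytes, had 29.1, 144 and 33.0 FPKM in DN1e libraries, against 3.29 and 3.99 FPKM in DN1ab libraries, with a limma adjusted p of 0.341. In the 25 T-cell receptor genes, 0 were called, 4 had all DN1e values above and 3 all below, beside 9.17% and 12.1% of all genes tested. Their median log2 difference was 0.319, and their summed levels were 191 to 300 FPKM in DN1e libraries, against 130 and 191 FPKM in DN1ab libraries.

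Of 15 genes of the programme of interleukin-17-producing gamma delta T cells that were tested, 0 were called. All DN1e values were above for 2 and below for 1, beside 9.17% and 12.1% of all genes tested. Sox13, a factor of that lineage, had 0.0425, 0.01 and 3.59 FPKM in DN1e libraries, against 18.8 and 16.4 FPKM in DN1ab libraries, with a limma adjusted p of 0.344. Rora, a nuclear receptor of interleukin-17 producers and innate lymphocytes, had 5.56, 5.46 and 3.33 FPKM in DN1e libraries, against 0.242 and 0.817 FPKM in DN1ab libraries, with a limma adjusted p of 0.613. Il17ra, the receptor for interleukin-17, which is not in that list, had 0.0903, 0.912 and 0.01 FPKM in DN1e libraries, against 20.9 and 32.4 FPKM in DN1ab libraries, with a limma adjusted p of 0.0895. In the other 13 libraries Il17ra had at least 3.94 FPKM, so DN1e held the 3 lowest values of the series.

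Of 23 chemokine receptor and homing genes tested, 0 were called, 6 had every DN1e value above DN1ab and 2 had every value below, beside 9.17% and 12.1% of all genes tested. The list also holds genes that are not receptors, such as the transcription factor Klf2. Ccr2, the receptor for Ccl2, had 13.2, 13.8 and 12.2 FPKM in DN1e libraries, against 0.479 FPKM in both DN1ab libraries. Cxcr6, a receptor of tissue-resident lymphocytes, had 32.2, 22.8 and 29.6 FPKM in DN1e libraries, against 2.97 and 0.239 FPKM in DN1ab libraries. The DN1e libraries held the 3 highest values of all 18 for both receptors, yet neither passed the test, with limma adjusted p of 0.231 for Ccr2 and 0.102 for Cxcr6.

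Markers of cells that a DN1 gate could also hold moved unevenly. The 26 granulocyte and mast cell genes summed to 47.0 to 1260 FPKM in DN1e libraries, against 239 and 447 FPKM in DN1ab libraries, and 21 passed the filter with 0 called. All DN1e values were above for 1 of the 21 and below for 5, beside 9.17% and 12.1% of all genes tested. The 1 above was Ms4a2, the beta chain of the IgE receptor, which had 23.4, 16.6 and 27.1 FPKM in DN1e libraries, against 0.01 and 0.179 FPKM in DN1ab libraries, with a limma adjusted p of 0.0599. Mpo, the neutrophil peroxidase, had 0.527, 0.01 and 1.16 FPKM in DN1e libraries, against 138 and 1.90 FPKM in DN1ab libraries. B cell genes summed to 97.8 to 266 FPKM in DN1e libraries, against 133 and 167 FPKM in DN1ab libraries. Stromal and epithelial genes summed to 120 to 190 FPKM in DN1e libraries, against 43.3 and 581 FPKM in DN1ab libraries, and erythroid and megakaryocyte genes to 49.2 to 3170 FPKM in DN1e libraries, against 76.6 and 147 FPKM in DN1ab libraries. For these 4 lists the ranges of DN1e and DN1ab overlapped, and their part in the differences was not tested.

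The second comparison set DN1e and DN1ab together against the other 5 populations, as the mean of their 2 population means minus the mean of the other 5. It asked what the pair had in common. Because the pair was chosen for myeloid transcripts seen in these same data, its calls for myeloid genes describe that choice and are not independent support. In limma with the same thresholds 154 of 24525 genes (0.628%) were called, 123 higher (0.502%) and 31 lower (0.126%), around a median of -0.0521 over all genes tested. Of the 154, 60 were also called between DN1e and DN1ab, 23 of them higher and 37 lower in DN1e, so those genes were not shared evenly by the pair. All 5 libraries lay above the other 13 for 10 called genes and below for 4, while 26 tested genes (0.106%) lay above and 19 (0.0775%) below. Without ImmV2 1 and DN2 1 the counts were 79 higher and 35 lower here, and 55 higher and 82 lower between DN1e and DN1ab.

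Tspan33, a tetraspanin, had the largest difference of the named genes for which all 5 libraries lay above the rest. It had 20.9, 56.1 and 34.2 FPKM in DN1e libraries and 14.1 and 11.1 FPKM in DN1ab libraries, against at most 0.390 FPKM in the other 13. Its log2 difference was 4.35 ± 0.491 (SE), with a limma adjusted p of 0.000696. Ebi3, the chain that interleukin-27 and interleukin-35 share, had 12.4, 38.4 and 26.1 FPKM in DN1e libraries and 19.8 and 15.3 FPKM in DN1ab libraries, against at most 5.56 FPKM in the others. This was a log2 difference of 3.83 ± 0.521 (SE), with a limma adjusted p of 0.0022. These were the only 2 of 167 named rows with at least 10 FPKM in all 5 libraries that were under 10 FPKM in all 13 others. Both calls held under all 14 alternatives run for this comparison.

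Genes of dendritic cells followed. Batf3, a factor required by cross-presenting dendritic cells, had 10.4, 3.00 and 20.5 FPKM in DN1e libraries and 7.01 and 0.759 FPKM in DN1ab libraries, and was listed at the lowest value in all 13 others. The limma adjusted p was 0.0174, and the call was lost both without ImmV2 1 and DN2 1 and under a pseudocount of 5 FPKM. Cst3, the protease inhibitor cystatin C, had 230, 120 and 181 FPKM in DN1e libraries and 55.8 and 52.4 FPKM in DN1ab libraries, against at most 30.8 FPKM in the others. Its log2 difference was 3.63 ± 0.756 (SE), with a limma adjusted p of 0.0391 that became 0.0564 without DN1e 1, 0.0822 without DN1ab 1 and 0.0669 without DN1ab 2. Flt3 was called too, at a log2 difference of 2.33 ± 0.509 (SE) and a limma adjusted p of 0.0461, but DN1 ckit+ libraries had 12.8, 9.11 and 19.3 FPKM. Its adjusted p became 0.104 without DN1ab 2, 0.0618 without DN1e 1 and 0.0616 without DN1e 3. The remaining shared genes by the naming rule were Gopc, a Golgi protein, and Sh3gl3, an endophilin. Their limma adjusted p were 0.0182 and 0.0427, and that of Sh3gl3 became 0.0948 without DN1ab 1.

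Fcer1g, Lyz2, Tyrobp, Ctss and Id2 were called higher in this comparison, while Ctsb and Cd63 were not, at limma adjusted p of 0.109 and 0.0911. Fcer1g, whose values are given above, did not exceed 37.3 FPKM in the other 13 libraries and had a log2 difference of 5.18 ± 0.654 (SE), with a limma adjusted p of 0.00128. Lyz2 did not exceed 16.5 FPKM there and had a log2 difference of 4.74 ± 0.707 (SE), with a limma adjusted p of 0.00491. In both genes the ranges of DN1ab and of the other libraries overlapped, and only DN1e lay above all of them. Tyrobp did not exceed 5.93 FPKM in the others and had a log2 difference of 3.84, with a limma adjusted p of 0.0151. Ctss and Id2 had limma adjusted p of 0.0248 and 0.0136, and Ctss lost its call without DN1ab 1 at 0.0886. The calls for Fcer1g and Lyz2 held under all 14 alternatives, and that for Tyrobp was lost with the deposited values. None of the alternatives removes the choice of the pair by its myeloid transcripts.

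Other phagocyte genes were picked from the called ones after their values were seen. Clec5a, a myeloid lectin that pairs with DAP12, had 31.6, 27.2 and 44.96 FPKM in DN1e libraries and 52.1 and 39.1 FPKM in DN1ab libraries, against 0.01 to 46.8 FPKM in the others. Its limma adjusted p of 0.0275 became 0.0703 without DN1ab 1. Cfp, which encodes properdin of the alternative complement pathway, had 197, 166 and 149 FPKM in DN1e libraries and 14.0 and 3.22 FPKM in DN1ab libraries, at a limma adjusted p of 0.0136 that became 0.0527 without DN1ab 1. P2ry12, a nucleotide receptor of microglia and platelets, had 51.3, 36.4 and 37.2 FPKM in DN1e libraries and 0.106 and 10.3 FPKM in DN1ab libraries, with a limma adjusted p of 0.0136. The 2 populations overlapped in Clec5a, while Cfp and P2ry12 had higher values in every DN1e library than in DN1ab. Cxcl16, the ligand of Cxcr6, had 18.6, 72.8 and 33.5 FPKM in DN1e libraries and 23.5 and 0.01 FPKM in DN1ab libraries, against at most 0.581 FPKM in the others, with a limma adjusted p of 0.0156.

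**Figure D5:**
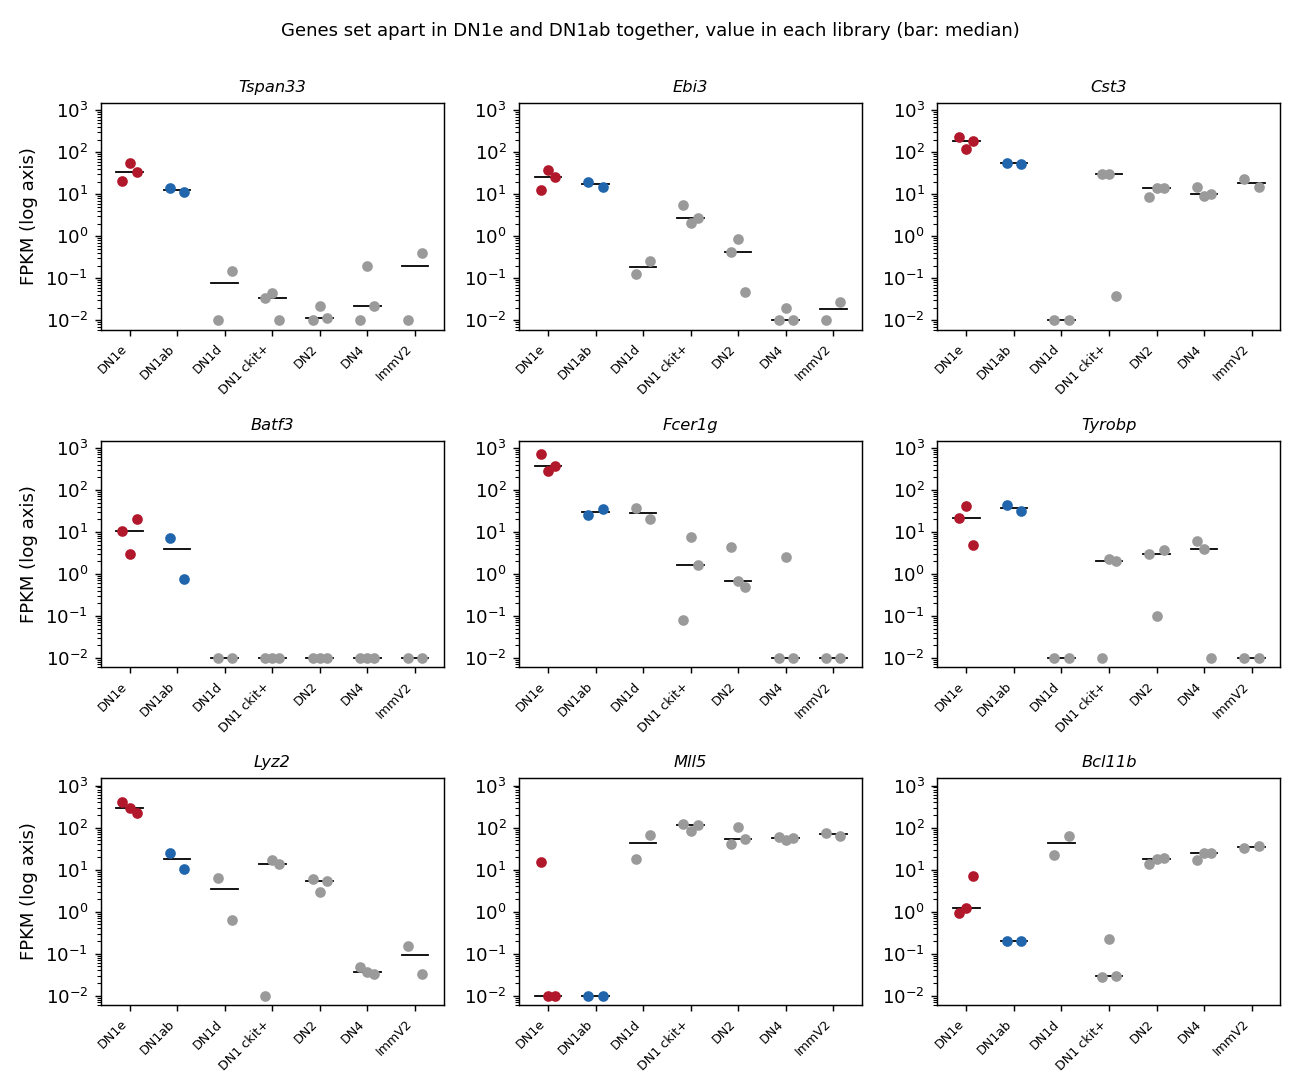
FPKM on a log axis (y) of 9 genes in each library, grouped by population (x), with the median as a bar. Tspan33 and Ebi3 are above 10 FPKM in all DN1e and DN1ab libraries and below it in every other library, and Mll5 is lower in those 5 libraries than in all others.

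The genes lower in both populations included regulators of T cells. Bcl11b, the factor that closes T-lineage commitment, had 0.905, 1.22 and 6.99 FPKM in DN1e libraries and 0.202 and 0.203 FPKM in DN1ab libraries. DN1d, DN2, DN4 and ImmV2 libraries had 13.3 to 61.9 FPKM, while DN1 ckit+ libraries had 0.0277, 0.217 and 0.0294 FPKM, so a low level was not particular to the pair. For Bcl11b the log2 difference was -2.86 ± 0.564 (SE), with a limma adjusted p of 0.0278 that became 0.0567 without DN1ab 1. Ets1, a factor of lymphocyte development, was listed at the lowest value in all 5 libraries, against a median of 25.2 FPKM in the other 13, with a limma adjusted p of 0.0278. Trbc2, a constant segment of the T-cell receptor beta chain, was likewise listed at the lowest value in all 5, against a median of 486 FPKM, with a limma adjusted p of 0.0447. Neither Ets1 nor Trbc2 was among the genes with all 5 libraries below the other 13. A listing at the lowest value was thus not particular to the pair for either gene. Ets1 is in the list of T-lineage commitment factors, of which 2 of 16 tested were called lower, beside 0.126% of all genes tested, and Trbc2 was picked after its values were seen. Tcf7 and Gata3, further factors of T cells, were not called, at limma adjusted p of 0.998 and 0.344. Tcf7 had 5.47, 0.01 and 21.2 FPKM in DN1e libraries and 0.0999 and 61.9 FPKM in DN1ab libraries, against a median of 3.41 FPKM elsewhere. Gata3 had 0.01, 6.97 and 93.0 FPKM in DN1e libraries and 3.12 and 3.29 FPKM in DN1ab libraries, against a median of 73.0 FPKM elsewhere.

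Of the 6 lower places in the naming rule, 3 were filled. Mll5, a chromatin protein, had 14.9, 0.01 and 0.01 FPKM in DN1e libraries and stood at the lowest value in both DN1ab libraries, against 18.1 to 122 FPKM in the other 13. Its log2 difference was -5.28 ± 0.716 (SE), with a limma adjusted p of 0.0022, and the call held under all 14 alternatives. Cirh1a, a ribosome assembly factor, did not exceed 1.95 FPKM in DN1e or 0.910 FPKM in DN1ab libraries, against at least 2.62 FPKM in the others, with a limma adjusted p of 0.0317 that became 0.0888 without DN1ab 1. Igf2bp3, an RNA-binding protein of fetal cells, did not exceed 0.671 FPKM in DN1e or 2.56 FPKM in DN1ab libraries, against at least 3.98 FPKM in the others. Its limma adjusted p of 0.046 became 0.0564 to 0.0666 without a DN1e library and 0.14 without DN1ab 2.

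Some genes had nearly the same level in all 5 libraries. Of 34082 rows, 231 had at least 10 FPKM in each of the 5, and 42 of them in all 18. The most even were Gspt1, a translation termination factor with 61.3, 50.7 and 63.4 FPKM in DN1e libraries and 54.3 and 51.1 FPKM in DN1ab libraries, and Cops5, a signalosome subunit with 17.4, 22.1 and 17.8 FPKM in DN1e libraries and 20.8 and 22.6 FPKM in DN1ab libraries. Uqcrq, a subunit of respiratory complex III, had 112, 84.0 and 107 FPKM in DN1e libraries and 92.5 and 102 FPKM in DN1ab libraries. At the other extreme, 151 rows had at least 10 FPKM in every DN1e library and under 1 FPKM in both DN1ab libraries, and 170 rows showed the reverse. The rows with the highest values were erratic. Pla2g10, a secreted phospholipase gene, was listed at 482400 FPKM in DN1e 1, DN1e 2 and both DN1ab libraries and at 0.01 FPKM in DN1e 3.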

How the data were processed

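RNA-seq values of 18 mouse thymocyte libraries were used. The authors deposited log2 FPKM, 1 row for each of 34082 gene symbols; Bowtie and the genome build mm8 are named per the submitters' processing notes, and the sources used here name no quantifier, normalization or version. Identical high values recur in different libraries, so values appear to have been scaled by rank before deposit. The table holds no counts, so depth and counting error are unknown. Values were returned to FPKM, genes reaching 1 FPKM in 2 or more libraries were kept (24525), and limma 3.58.1 (R 4.3.3; lmFit, contrasts.fit, eBayes with trend, two-sided) was run on log2(FPKM + 1) with 7 population means. Differences are on that scale and understate the change of low genes. The script was tested on simulated data. Members and the 23 gene lists (456 genes, 448 in the table, 394 tested) were chosen with earlier results of these data known. Named genes were the 12 highest and 12 lowest called genes without overlap, up to 6 each way of the second comparison, up to 4 per list, key markers, and the highest and the most even rows, passing over RIKEN, Gm, LOC and clone names, microRNAs and small nucleolar or Cajal body RNAs. Alternatives changed the pseudocount, filter, scaling, trend, block and libraries; leaving out ImmV2 1 and DN2 1 was added after seeing the data. The upstream sequences are of another build than mm8 and were matched by symbol.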

Additional observations from a re-analysis of the deposited data

How the results depend on the processing

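The calls between DN1e and DN1ab depended on how the spread was estimated, and no gene whose difference is given changed direction. Against 142 calls (61 higher, 81 lower), the 5 libraries alone gave 0, a pseudocount of 0.1 FPKM gave 83 (38 and 45), the deposited values gave 43 (19 and 24), and no trend gave 95 higher. Leaving out 1 library gave 226 to 366 calls, 32 to 195 higher and 75 to 324 lower. For both populations against the others, 154 calls (123 higher, 31 lower) became 95 (43 and 52) with the deposited values. A pseudocount of 0.1 FPKM gave 79 higher, a pseudocount of 5 FPKM 17 lower, no filter 55 lower, no trend 62 lower, and leaving out ImmV2 1 and DN2 1, chosen after seeing the data, 79 higher. Leaving out 1 library gave 204 to 378 calls, 178 to 340 higher and 18 to 38 lower. Same-numbered libraries did not deviate together (median correlation -0.00228 over 48 pairs, 0.00159 over 90 pairs of different numbers), so the numbers were not taken as pairs. A replicate block gave 85 calls (32 higher, 53 lower) between the populations and 78 (63 and 15) for both against the others. Of the 142 genes, 142 kept their call with quantile normalization and 29 with the deposited values. Of the 33 called genes whose differences were followed by name, 8 kept their call with the deposited values. Quantile normalization can change little in values that appear already scaled by rank, so the calls kept there say little about scaling. The causes were not tested. Depth is unknown, so no floor can be set for genes at the lowest value.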
